A study of Mus musculus with 12 samples.

Results

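The genes described here encode 7 subunits of the GABA-A receptor: Gabra2, Gabra3, Gabra4 and Gabra5 of the alpha class, Gabrb1 and Gabrb2 of the beta class, and Gabrg1 of the gamma class. They were chosen by name, and each was measured by the single probeset that the platform annotation assigns to it alone, among 22180 genes and 41345 probesets in all. RNA from the nucleus accumbens (NAC) was measured in 6 postpartum and 6 virgin mice, 1 mouse per GeneChip Mouse Gene 2.0 ST array. The postpartum mice were lactating outbred hsd:ICR females taken on day 7 with litters held at 11 pups, and the virgin mice were age-matched hsd:ICR females in diestrus. Both groups were adults housed singly before collection, the postpartum mice after a period with a breeder male and the virgin mice after a period with other females. The punches held both core and shell of the NAC and were not sorted by cell type, so fewer cells of a type and less RNA per cell cannot be told apart in these values.

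GABA-A receptors are chloride channels opened by GABA, and they carry most of the fast inhibition in the brain. A receptor is built from alpha and beta subunits, which form the GABA binding sites, usually with a gamma or delta subunit that helps to set its place at or outside the synapse and its response to benzodiazepines. In the NAC most neurons are themselves GABAergic projection neurons that receive inhibition from their neighbours and from interneurons, and the choice of alpha subunit differs between striatal and cortical cells.

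No member passed the test between postpartum and virgin NAC. A gene was called at an unadjusted limma p under 0.01, the threshold of the study, and 0 of the 7 members passed it, against 2.3% of all 41345 probesets (951 called, with 1.24% higher and 1.06% lower in postpartum NAC) and 3.81% of genes of above-median intensity. None passed an adjusted p under 0.05 either, where no probeset of the array did by limma, and none had an unadjusted p under 0.05, against 8.91% of all probesets. The members' log2 fold changes lay between -0.10 (Gabra4) and 0.11 (Gabra5), with a median absolute difference of 0.060, against 0.056 over the 11090 genes of above-median intensity. The smallest limma p was 0.108 and the smallest adjusted p 0.633, both for Gabra4. The groups overlapped in all 7 genes, while they did not overlap in 0.803% of all probesets and in 1.06% of genes.

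The 7 genes lie on 4 chromosomes in mouse. Gabrg1, Gabra2, Gabra4 and Gabrb1 form a cluster on chromosome 5, where Cox7b2 is the only protein-coding gene between them. Gabra5 lies on chromosome 7 beside Gabrg3, Gabrb2 on chromosome 11 and Gabra3 on chromosome X beside Gabrq. Within the cluster Gabra4 (minus strand) and Gabrb1 (plus strand) start head to head, and by RefSeq in GRCm38.p6 their starts lie 387 bases apart with each transcript reading across the start of its partner. All 7 genes matched the RefSeq promoter table, through 11 windows of 300 bases (250 before and 50 after a start). These windows are shown because the first pair lie head to head and had differences of opposite sign, and the second pair were the members that varied most closely together from mouse to mouse. The capitals mark a CCAAT box (CCAAT), a GC box (GGGCGG) or a TATA box (TATAAA), each searched on both strands, with no overlap among the matches shown.
Gabra4, chr5:71658259-71658558, minus strand: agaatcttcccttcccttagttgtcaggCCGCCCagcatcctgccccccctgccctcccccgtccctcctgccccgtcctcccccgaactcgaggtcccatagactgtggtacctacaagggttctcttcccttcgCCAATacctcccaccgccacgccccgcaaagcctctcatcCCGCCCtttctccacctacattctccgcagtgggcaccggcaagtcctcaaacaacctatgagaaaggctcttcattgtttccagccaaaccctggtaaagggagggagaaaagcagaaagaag
Gabrb1 (the first of its starts), chr5:71657671-71657970, plus strand: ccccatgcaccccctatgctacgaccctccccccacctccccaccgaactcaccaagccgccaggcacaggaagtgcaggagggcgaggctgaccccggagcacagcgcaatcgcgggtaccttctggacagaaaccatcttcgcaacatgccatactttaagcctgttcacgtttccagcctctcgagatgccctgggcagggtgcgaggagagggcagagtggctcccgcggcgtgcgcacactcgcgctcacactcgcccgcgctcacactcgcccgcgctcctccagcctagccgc
Gabra3 (the more upstream of its starts), chrX:72656870-72657169, minus strand: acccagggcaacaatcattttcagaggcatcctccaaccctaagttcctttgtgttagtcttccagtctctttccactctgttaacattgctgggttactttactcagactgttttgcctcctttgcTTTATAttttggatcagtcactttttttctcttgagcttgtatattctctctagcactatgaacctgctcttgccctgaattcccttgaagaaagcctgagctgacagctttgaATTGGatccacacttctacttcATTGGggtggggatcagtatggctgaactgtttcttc
Gabra5, chr7:57510010-57510309, minus strand: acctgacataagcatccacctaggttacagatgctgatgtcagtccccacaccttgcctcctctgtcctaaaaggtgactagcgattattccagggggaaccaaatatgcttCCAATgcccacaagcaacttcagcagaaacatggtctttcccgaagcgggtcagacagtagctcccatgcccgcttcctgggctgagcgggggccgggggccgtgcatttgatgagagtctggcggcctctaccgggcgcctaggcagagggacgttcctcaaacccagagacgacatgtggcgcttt
The GC box was held by 35.7% of all 32851 promoter windows of the same length, the CCAAT box by 37.4% and the TATA box by 13.6%. The Gabra4 window held the GC box and the CCAAT box, and the Gabrb1 window held none of the 3. The Gabra3 and Gabra5 windows shared only the CCAAT box. GC content was 58.7% for Gabra4 and 66% for Gabrb1, against 43% for Gabra3 and 56.7% for Gabra5, with a median of 52.7% over all windows. The cAMP response element TGACGTCA, which is bound by CREB proteins, was found in 0 of the 11 windows of the members and in 1.79% of all windows. These matches describe letters only.

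Gabra2 encodes the alpha-2 subunit, the alpha subunit of many synaptic receptors on striatal projection neurons. Its intensity on the linear PLIER scale was lowest at 2939, in the middle at 3130.1 and highest at 3245 in postpartum mice, against 2748, 3065 and 3390.5 in virgin mice. The postpartum arrays lay inside the range of the virgin arrays, and the mean was 3112 ± 105 in postpartum mice, against 3101 ± 226 in virgin mice (SD, n = 6 each; means below carry the same error). Postpartum minus virgin, the log2 difference was 0.0080 with a standard error (SE) of 0.054 (limma p = 0.884, exact permutation p = 0.868). The 95% confidence interval of the linear change ran from -7.31% to 9.09%.
Gabra4 encodes the alpha-4 subunit, which pairs with delta in receptors outside the synapse and is insensitive to classical benzodiazepines. Its intensities were 2847 at the lowest, 2998 at the median and 3338 at the highest in postpartum mice, against 3030, 3318 and 3517 in virgin mice. Postpartum values were mostly the lower ones, with 4 of 6 below every virgin array and 1 above the virgin median, but postpartum replicates 2 and 3 lay within the virgin range. On the log2 scale the difference was -0.10 with a standard error of 0.057 (limma p = 0.108, adjusted p = 0.633, exact permutation p = 0.0823). The interval ran from -14.4% to 1.77%.

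Markers of striatal projection neurons also had lower means. All 8 measured markers of that list lay lower in postpartum NAC, with a median log2 fold change of -0.16, though only Rgs9, a regulator of G protein signaling, passed the threshold (-0.26, SE 0.083, limma p = 0.00799, adjusted p = 0.415, exact permutation p = 0.0108). Their summed intensity ran from 22158 to 27959 in postpartum mice and from 25851 to 29986 in virgin mice. The defining markers were bright in both groups, with Drd2, the D2 dopamine receptor, at 3002 ± 463 in postpartum mice, against 3235 ± 325 in virgin mice. Penk, the enkephalin precursor, averaged 6196 ± 740 in postpartum mice, against 7242 ± 448 in virgin mice (log2 difference -0.23, SE 0.081). Drd1, the D1 dopamine receptor, averaged 1471 ± 249 in postpartum mice, against 1860 ± 257 in virgin mice. Its log2 difference of -0.34 (SE 0.12) was the lowest of the 8 markers. Penk and Drd1 missed the threshold but passed the wider one of 0.03. The paper called Penk at its 0.01 threshold and reports qPCR changes of Penk and Drd1 (as Drd1a). A score of the 8 markers was their mean z score over all 12 arrays, not centred by group. With that score as a covariate the log2 difference of Gabra4 was 0.014. All 8 markers had lower means in postpartum NAC, so the score itself differed by group and this fit cannot separate score from group. The part of the 8 markers in the Gabra4 difference was therefore not tested.

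Gabra3 encodes the alpha-3 subunit, found in the cortex and in monoaminergic and cholinergic neurons. Intensities had a lowest value of 3341, a median of 3549.9 and a highest value of 3699.7 in postpartum mice, against 3303, 3366 and 3679 in virgin mice. Virgin mice fell into 4 low and 2 high arrays, and the postpartum arrays covered the same span. The difference was 0.039 on the log2 scale, with a standard error of 0.044 (limma p = 0.397, exact permutation p = 0.275), and the interval ran from -3.92% to 9.85%.
Gabra5 encodes the alpha-5 subunit, known for receptors outside the synapse in hippocampus and cortex. Its values in postpartum mice were 1620.45 at the lowest, 2007 at the median and 2309.8 at the highest, against 1657, 1851.5 and 2054 in virgin mice. The postpartum group held both the lowest array of all 12 (replicate 4) and the 2 highest (replicates 1 and 5). The fold change on the log2 scale was 0.11 with a standard error of 0.085 (limma p = 0.210, exact permutation p = 0.216), and its interval ran from -4.91% to 22.9%. The difference was 0.17 without postpartum replicate 4 and 0.071 without postpartum replicate 1, both short of the threshold. With a score of cortical markers as a covariate it was 0.051, and with that of striatal projection neurons it was -0.022.

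**Figure D1:**
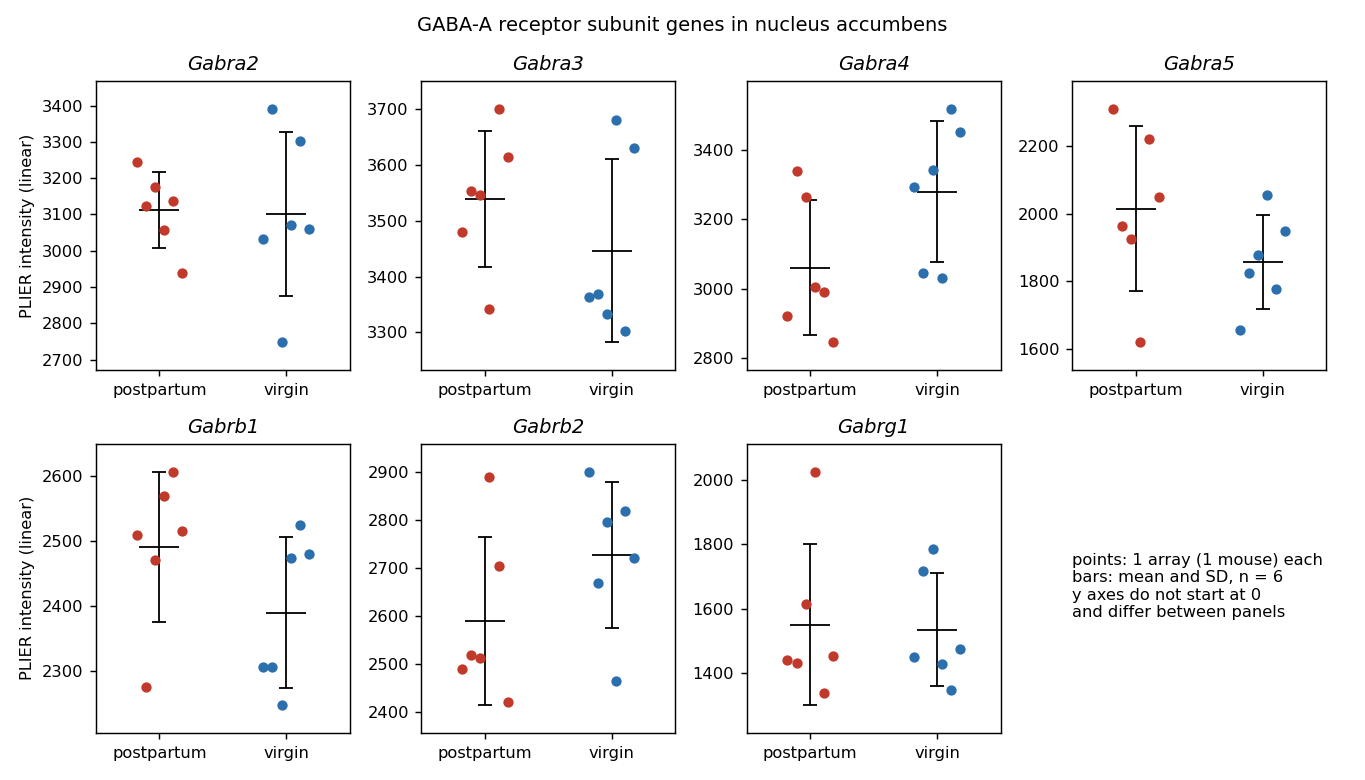
PLIER intensity (linear scale, axes not starting at 0) of each of the 7 subunit genes on every array, postpartum on the left and virgin on the right of each panel, with the mean and SD of 6 arrays. The 2 groups overlap in every panel, and the highest Gabrg1 point (2025) and the lowest Gabra5 point (1620.45) are both postpartum replicate 4.

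The 2 beta subunits had differences of opposite sign, neither past the threshold. Gabrb1 encodes beta-1, a less common beta subunit of the forebrain. Its lowest, median and highest intensities were 2275.5, 2512 and 2605 in postpartum mice, against 2248, 2390.2 and 2525 in virgin mice. Of the 6 postpartum arrays 5 lay above the virgin median and 2 above every virgin array, with replicate 2 near the bottom. The log2 difference was 0.060 with a standard error of 0.048 (limma p = 0.240, exact permutation p = 0.158, interval -3.11% to 12.1%).
Gabrb2 encodes beta-2, the beta subunit of the most abundant receptors of the brain. In postpartum mice its intensity was 2423 at the lowest, 2515 at the median and 2889 at the highest, against 2465, 2758 and 2900 in virgin mice. Only 1 of 6 postpartum arrays, replicate 4, exceeded the virgin median. The log2 difference was -0.076 with a standard error of 0.056 (limma p = 0.204, exact permutation p = 0.173, interval -12.9% to 3.32%).
The balance of the 2 beta genes within an array, log2 Gabrb1 minus log2 Gabrb2, averaged -0.055 ± 0.088 in postpartum mice, against -0.19 ± 0.12 in virgin mice, with 2 postpartum arrays above every virgin array. For Gabra4 minus Gabra5 it averaged 0.61 ± 0.22 in postpartum mice, against 0.82 ± 0.16 in virgin mice, with 3 postpartum arrays below every virgin array. Both balances overlapped between the groups. They were picked out of 21 possible pairs after their values were seen and carry no test.

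Gabrg1 encodes gamma-1, a gamma subunit of restricted distribution that is also found in glia. It had intensities of 1337 at the lowest, 1446 at the median and 2025 at the highest in postpartum mice, against 1346, 1463 and 1785 in virgin mice. A single array, postpartum replicate 4, exceeded all virgin arrays, and the other 5 lay at or below 1616. Its log2 difference was 0.0089 with a standard error of 0.11 (limma p = 0.934, exact permutation p = 0.9502), and -0.071 without postpartum replicate 4. The interval, from -14.2% to 17.98%, was the widest of the 7 members. Its within-group SD was 0.19 on the log2 scale, against 0.060 for Gabra3, the steadiest member, and 0.094 for the median gene of above-median intensity. Of 8 astrocyte markers 7 had higher means in postpartum NAC and 0 were called, with summed intensities of 16082 to 18008 in postpartum mice, against 15194 to 17149 in virgin mice. The log2 difference of Gabrg1 was -0.070 with the astrocyte score as a covariate and 0.084 with that of cortical neurons.

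The remaining genes of GABA signaling also held no gene past the threshold on log2 intensities. Across 5 lists, 0 of 56 measured genes were called, against 2.8% of all genes (1 probeset per gene). A limma p under 0.03 was reached by 2, against 5.73% of all probesets. On linear intensities 2 of the 56 were called, Mkln1 and Ubqln1, against 1262 of all 41345 probesets. Of 9 other measured GABA-A subunits, 6 had lower and 3 had higher means in postpartum NAC, with a median log2 fold change of -0.074. Gabrg3, the gamma-3 subunit and neighbour of Gabra5, averaged 2234 ± 140.3 in postpartum mice, against 2387 ± 137 in virgin mice, with 5 of 6 postpartum arrays below every virgin array. The difference was -0.095 on the log2 scale (SE 0.055, limma p = 0.108, exact permutation p = 0.0758). Gabrp, the pi subunit best known outside the brain, was dim, at 47.9 ± 9.39 in postpartum mice, against 59.4 ± 8.17 in virgin mice, a log2 difference of -0.32 (limma p = 0.0268, adjusted p = 0.511, exact permutation p = 0.0390). Gabrr3, a rho subunit of the retina, averaged 48.0 ± 2.24 in postpartum mice, against 54.6 ± 7.85 in virgin mice, a log2 difference of -0.18 (limma p = 0.0607, exact permutation p = 0.0584).

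Genes that make, load and clear GABA had a median log2 fold change of -0.11, the lowest of the 5 lists, where the median of all 22180 genes was -0.0052. Of the 7 measured genes 5 had lower means in postpartum NAC and 0 passed. Slc6a13, the transporter GAT2 of the meninges and blood-brain interfaces, came closest. It ranged from 395 to 634 with a median of 518 in postpartum mice, against 480.02 to 1070.25 with a median of 697 in virgin mice, and 5 virgin arrays exceeded every postpartum array. The log2 difference was -0.56 with a standard error of 0.19 (limma p = 0.0111, adjusted p = 0.438, exact permutation p = 0.0238), and limma called it under some alternative settings. Markers of choroid plexus and ependyma had lower means for 4 of 5 genes, with summed intensities of 1021 to 1195 in postpartum and 1080 to 1645 in virgin mice and none called, and their part in the Slc6a13 difference was not tested. Slc32a1, the vesicular GABA transporter, averaged 897 ± 165 in postpartum mice, against 1038 ± 109 in virgin mice, a log2 difference of -0.22 (SE 0.11, limma p = 0.0736, exact permutation p = 0.0974). Gad2, one of the enzymes that make GABA, averaged 4452 ± 540.04 in postpartum mice, against 4914 ± 337 in virgin mice, a log2 difference of -0.15 (SE 0.080, limma p = 0.0878, exact permutation p = 0.104). Without postpartum replicate 4 both genes passed the threshold, Slc32a1 with a log2 difference of -0.31 and Gad2 with -0.20. Neuronal markers did not all lie on 1 side. The 8 markers of striatal projection neurons had lower means in postpartum NAC, while 7 of 8 interneuron markers had higher means, with a median log2 difference of 0.16. The 1 with a lower mean was Chat (-0.13), which marks cholinergic and not GABAergic interneurons. Summed intensities of the 8 interneuron markers were 11635 to 17576 in postpartum mice, against 12057 to 15359 in virgin mice. Of these markers Calb2, the calcium-binding protein calretinin, was called, at 777 ± 164 in postpartum mice, against 515 ± 77.8 in virgin mice (log2 difference 0.58, adjusted p = 0.342). All 5 neuroblast markers also had higher means, and Cd24a, a surface protein of young neurons, was called (log2 difference 0.59, adjusted p = 0.333). The part of these markers in the differences of Slc32a1 and Gad2 was not tested. Among glial markers Opalin, a myelin protein, was called lower in postpartum NAC (log2 difference -0.47, adjusted p = 0.427). It was the 1 called of 6 measured markers of mature oligodendrocytes, of which 5 had lower means and 1, Mobp (0.17), a higher mean. Their median log2 difference was -0.067, with Mbp at -0.0096. Summed intensities of the 6 were 6540 to 9123 in postpartum mice, against 6851 to 8872 in virgin mice.

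Of 23 measured genes that anchor or carry the receptors, 14 had higher and 9 had lower means in postpartum NAC, and 0 passed. Gphn, which encodes the scaffold gephyrin, averaged 2267 ± 118 in postpartum mice, against 2314 ± 89.2 in virgin mice, and Nlgn2, the adhesion protein neuroligin-2 of inhibitory synapses, averaged 1973 ± 77.1 in postpartum mice, against 1975 ± 62.5 in virgin mice. Mkln1, which encodes muskelin, a trafficking factor that binds GABA-A receptors, averaged 1328 ± 20.2 in postpartum mice, against 1254 ± 35.7 in virgin mice. Its difference of 0.084 (standard error 0.036) had a limma p of 0.0369 (adjusted p = 0.538) and an exact permutation p of 0.00433, and limma called it when run on linear intensities or with arrays centred on their median. Trak1, a trafficking adaptor, differed by 0.090 (limma p = 0.0593, exact permutation p = 0.0281) and Zdhhc3, a palmitoyltransferase, by 0.095 (limma p = 0.0597, exact permutation p = 0.0303). Postpartum arrays above every virgin array numbered 5 of 6 for Mkln1 and Trak1 and 4 of 6 for Zdhhc3. Gphn and Nlgn2 were picked as the best known members of the list, not by the naming rule.
Among 12 measured genes that set the chloride gradient, the smallest limma p was 0.124, for the kinase gene Wnk3 (log2 difference 0.070, standard error 0.042, exact permutation p = 0.0519). Slc12a2, the chloride importer NKCC1, differed by -0.063 (limma p = 0.286, exact permutation p = 0.242), and Slc12a7, a potassium-chloride cotransporter, by -0.13 (limma p = 0.187, exact permutation p = 0.188). The 5 genes of the GABA-B receptor list likewise held none that passed, with Kctd8, an auxiliary subunit of that receptor, at -0.25 (limma p = 0.0548, exact permutation p = 0.0671), and the related Kctd12 at 0.10 and Kctd16 at 0.021.

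**Figure D2:**
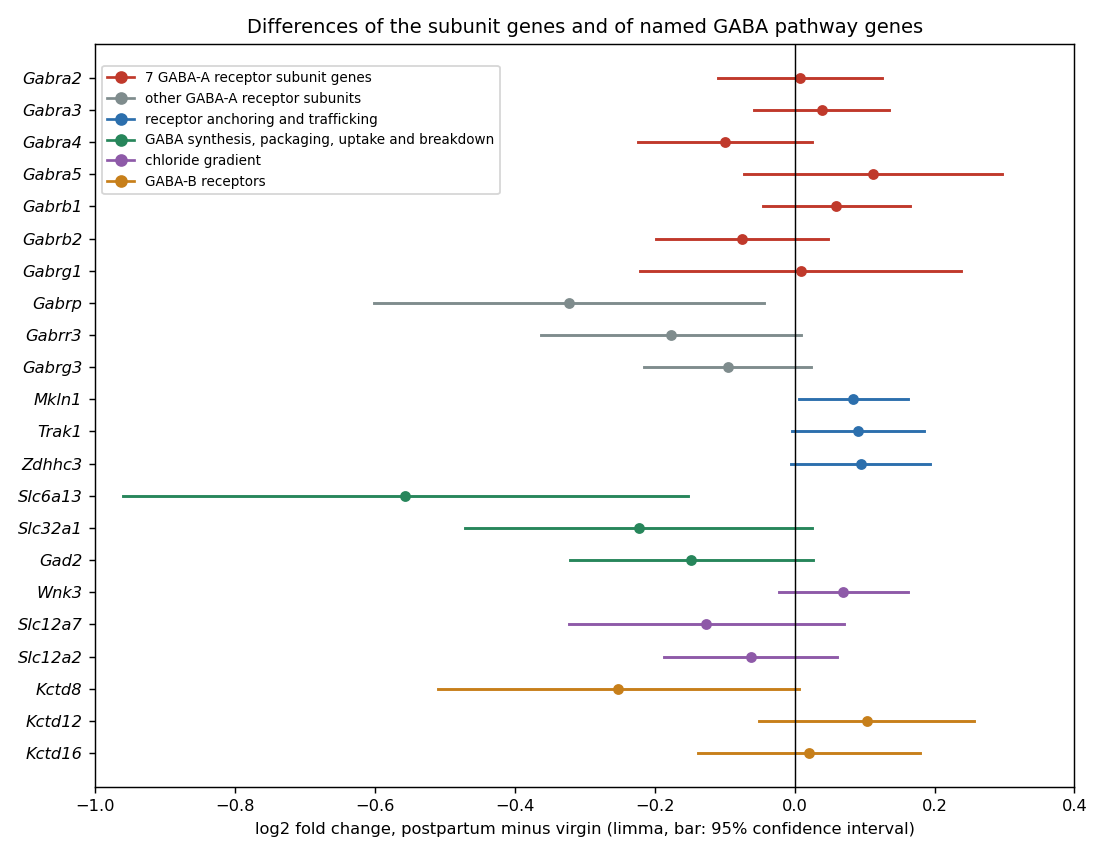
Log2 fold change (postpartum minus virgin) with 95% confidence interval by limma for the 7 subunit genes and, below them, the 3 genes of smallest p in each of 5 GABA pathway lists. The intervals of all 7 subunit genes include 0, and the widest interval of the plot, at the lowest value (-0.56), is that of Slc6a13.

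The members did not vary as 1 block from mouse to mouse. For each of the 21 pairs of members the log2 deviations from the group means were correlated over the 12 arrays, with permutations within groups. Pearson's r ran from -0.67 to 0.67 with a median of -0.093. For 3 pairs the unadjusted permutation p was under 0.05, and for 0 after adjustment over the 21 pairs. Gabra3 and Gabra5 had the highest value (r = 0.67, permutation p = 0.0147, adjusted p = 0.308; rho = 0.70, permutation p = 0.0124, adjusted p = 0.261). The r of this pair was 0.62 without the 2 arrays farthest from the Gabra3 median, 0.68 among the postpartum and 0.79 among the virgin arrays. Gabrb2 ran the other way from both, with r = -0.67 against Gabra5 (permutation p = 0.0316, adjusted p = 0.311; rho = -0.55, permutation p = 0.0936) and r = -0.60 against Gabra3 (permutation p = 0.0454, adjusted p = 0.311; rho = -0.60, permutation p = 0.0450). Without the 2 farthest arrays these were -0.42 and -0.49. Gabra4 and Gabrb1, the head-to-head pair, had r = -0.22 (permutation p = 0.510, adjusted p = 0.824; rho = -0.11, permutation p = 0.749), with -0.73 among postpartum and 0.29 among virgin arrays. The r of -0.60 between Gabra5 and Gabrg1 was -0.20 without the 2 farthest arrays and so rested on them.

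**Figure D3:**
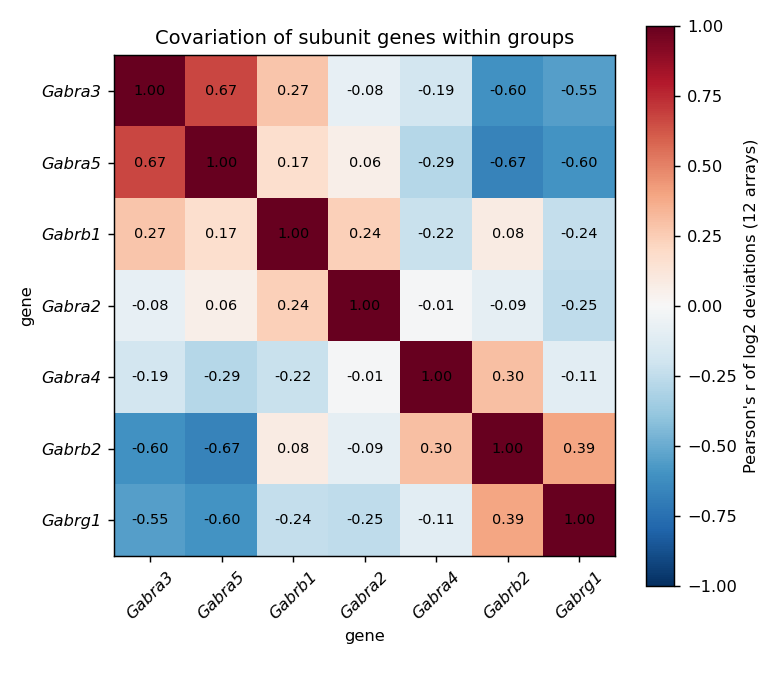
Pearson's r of log2 deviations from the group means over 12 arrays for every pair of the 7 genes, red for positive and blue for negative values. The highest r is that of Gabra3 and Gabra5 (0.67) and the lowest that of Gabra5 and Gabrb2 (-0.67); no pair passed adjustment, and the value of -0.60 for Gabra5 and Gabrg1 was -0.20 without the 2 farthest arrays.

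The members were also set against cell markers from mouse to mouse, and no relation passed adjustment. The mean of the group-centred, SD-scaled values of each of 10 marker lists was set against the 7 genes, 70 relations in all, of which 6 had an unadjusted permutation p under 0.05 and 0 an adjusted p under 0.05. The highest r was that of Gabra4 with the 8 markers of striatal projection neurons (r = 0.83, permutation p = 0.00231, adjusted p = 0.0808; rho = 0.77, permutation p = 0.00512, adjusted p = 0.175). The r was 0.89 without the 2 arrays of most extreme score, 0.84 among postpartum and 0.87 among virgin arrays. Gabra3 was closest to the 7 markers of cortical glutamatergic neurons (r = 0.82, permutation p = 0.00144, adjusted p = 0.0808; rho = 0.82, permutation p = 0.00165, adjusted p = 0.115), and r was 0.71 without the 2 farthest arrays. Gabra5 was closest to the same cortical markers (r = 0.78, permutation p = 0.00794, adjusted p = 0.185, and rho = 0.77, permutation p = 0.00749, adjusted p = 0.175), with 0.62 without the 2 farthest arrays, 0.93 among postpartum and 0.46 among virgin arrays. It ran against the striatal score (r = -0.60, permutation p = 0.0653, and rho = -0.69, permutation p = 0.0306, adjusted p = 0.428), with r = -0.38 without the 2 farthest arrays. Gabrg1 ran against the cortical score (r = -0.72, permutation p = 0.0234, adjusted p = 0.410), but its rank correlation was nearer 0 (rho = -0.36, permutation p = 0.268), and r was -0.54 without the 2 farthest arrays. Against the 4 markers of oligodendrocyte precursors Gabrg1 had r = 0.61 (permutation p = 0.0296, adjusted p = 0.414; rho = 0.71, permutation p = 0.0130, adjusted p = 0.228), and 0.40 without the 2 farthest arrays. With astrocyte markers its r of 0.57 (permutation p = 0.0636; rho = 0.21, permutation p = 0.523) was -0.10 without the 2 farthest arrays and so rested on them. Gabrb1 ran against the 6 microglial markers (r = -0.64, permutation p = 0.0383, adjusted p = 0.447; rho = -0.57, permutation p = 0.0595), with -0.43 without the 2 farthest arrays. Gabra2 and Gabrb2 had no relation with an unadjusted p under 0.05. The striatal and cortical scores themselves had r = -0.39 over the 12 arrays (permutation p = 0.271).
Cortical markers were present in the punches of both groups. Slc17a7, the vesicular glutamate transporter of cortical neurons, averaged 4826 ± 841 in postpartum mice, against 4454 ± 707 in virgin mice, and Neurod6, a transcription factor of cortical projection neurons, averaged 825 ± 151 in postpartum mice, against 669 ± 105 in virgin mice. Cux2, a transcription factor of upper cortical layers and the marker of smallest p in this list, lay the other way, at 388 ± 18.1 in postpartum mice, against 430.4 ± 28.4 in virgin mice (log2 difference -0.15, adjusted p = 0.482). Of the 7 cortical markers 5 had higher means in postpartum NAC, Cux2 and Fezf2 had lower means and 0 were called, and their summed intensity ran from 7386 to 11996 in postpartum and from 7619 to 10321 in virgin mice. Postpartum replicate 4 had the lowest cortical score of the 12 arrays (-1.11), and it was also the array with the lowest Gabra5 and the highest Gabrg1 value.

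**Figure D4:**
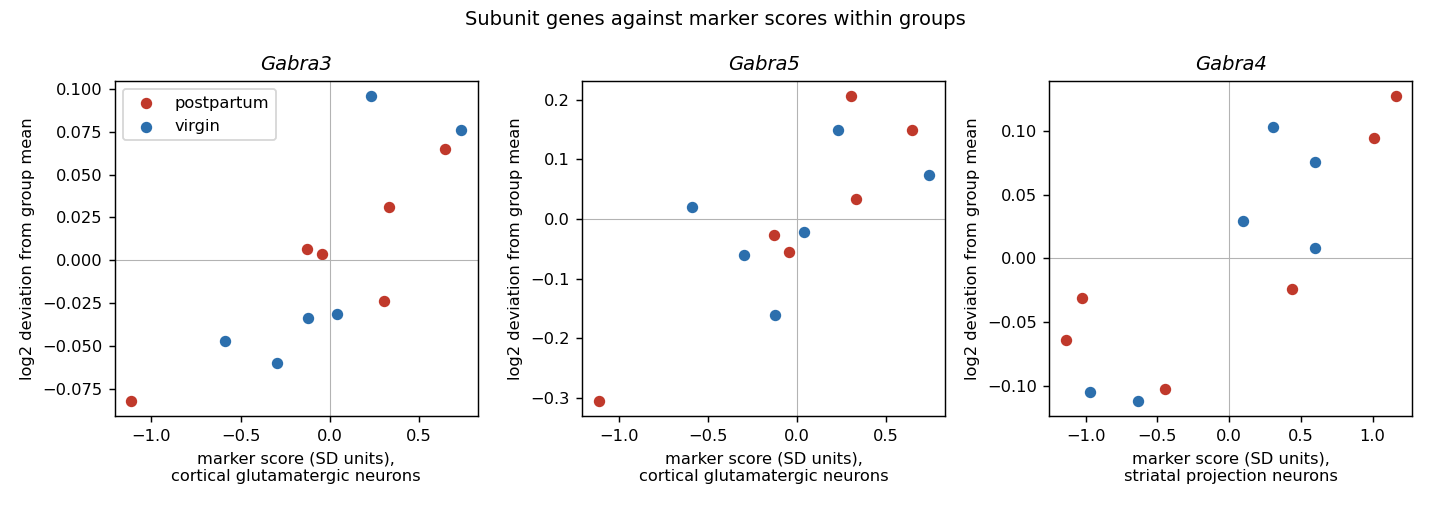
Log2 deviation from the group mean of Gabra3 and Gabra5 against the score of cortical glutamatergic neuron markers, and of Gabra4 against the score of striatal projection neuron markers, in SD units, with 1 point per array (postpartum red, virgin blue). Points of both groups run upward in all 3 panels, and the array at the lowest cortical score (-1.11) is postpartum replicate 4.

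Among 11089 other genes of above-median intensity, those whose deviations were most like a member's over the 12 arrays differed from member to member. For Gabra4 they were Klf9, a transcription factor induced by glucocorticoids and thyroid hormone (r = 0.93), Mctp1 (0.91) and Cd53 (0.89). For Gabra5 they were Kif3c, a kinesin motor (0.94), Rxfp1, the relaxin receptor (0.92), and Ak4, a mitochondrial adenylate kinase (0.91). Gabra3 was closest to Fasn, the fatty acid synthase (0.89), Fscn1, an actin-bundling protein (0.89), and Astn1, a protein of neuronal migration (0.88). Gabra2 was closest to Astn2, the paralog of Astn1 (0.86), the kinase gene Sik1 (0.85) and Gm7138 (0.85). The beta genes were closest to Rgs3 (0.93), Mir669m-1 (0.89) and C7 (0.88) for Gabrb1, and to Zfp30 (0.94), P3h3 (0.94) and Med12 (0.91) for Gabrb2. Gabrg1 was closest to Nudt22 (0.93), Mlc1, a membrane protein of astrocytes (0.93), and Nhs (0.93). Each r is among the 3 highest of 11089, searched over 12 arrays, and no gene appeared under 2 members.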

How the data were processed

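RNA of 6 postpartum and 6 virgin mice was hybridised to 12 arrays, grouped by the submitters' labels. The authors ran PLIER (in Expression Console by the article, in Affymetrix Power Tools 1.12.0 by the submitters' notes) and deposited 1 normalized linear intensity per probeset and array. The genome build behind the probes is not given in the sources used here. Array medians ran from 153.0 to 165.0 and Spearman correlations between arrays from 0.976 to 0.990. Precision is bounded by having 6 arrays a group, among other things. The annotation names 1 gene for 23521 probesets, several for 1820, and 16004 are unnamed here. The brightest probeset stood for a gene.

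Values under 1 were set to 1 before log2, which understates the folds of very dim probesets. The fit used limma 3.58.1 under R 4.3.3 (lmFit, eBayes, Benjamini and Hochberg over all probesets, 95% intervals), checked on simulated data, beside two-sided exact permutation tests (scipy 1.17.1), whose smallest possible p is 0.00216 here. Correlations used 100000 within-group permutations. The members and lists were chosen with earlier results of these data known. The genes named are the 7 members, every called and the 3 smallest-p genes of each GABA pathway list, the 3 genes most like each member, and defining or called markers. Some listed genes were not analysed here. Alternatives were 2 other normalizations, linear values, a pseudocount of 16, a filter on dim probesets, other variance models, array weights, replicate blocks, marker covariates (mean z scores over all 12 arrays, not centred by group), other thresholds and each array left out. The labels do not say that a replicate number marks a shared collection day, and same-numbered arrays did not deviate together.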

Additional observations from a re-analysis of the deposited data

Results flagged for a closer look

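Of 44 groups of 6 values examined for the members and the named pathway genes, 2 held an array far from its 5 companions, where chance gives about 1 in 20 (2.2 groups). Both were postpartum replicate 4. Its Gabrg3 intensity was 2506.8, above the other 5 postpartum arrays at 2101 to 2219. Its Slc12a7 intensity was 83.4, below the other 5 postpartum arrays at 112 to 119. None of the 7 member genes had such an array in either group, although postpartum replicate 4 held the highest Gabrg1 and the lowest Gabra5 value of all 12 arrays.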

How the results depend on the processing

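The number of members called was 0 under all alternatives tried, including the 0.03 threshold, adjusted p and each array left out (0 to 0). The sign turned for 4 genes whose fold change was not past the threshold. Gabrg1 had a log2 fold change of -0.011 after quantile normalization, -0.0050 with array weights and -0.070 with the astrocyte score as a covariate. Gabra2 had -0.0021 with the cortical score and -0.018 with the striatal score, and with the striatal score Gabra4 had 0.014 and Gabra5 -0.022. The cause was not tested. With single arrays left out Gabra2 ranged from -0.026 to 0.034, Gabra5 from 0.071 to 0.17 and Gabrg1 from -0.071 to 0.054. Gabra3, Gabrb1 and Gabrb2 kept their sign under all 25 alternatives.

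In the pathway lists 0 genes were called, and 1 with arrays centred on their median (Mkln1), with a pseudocount of 16, above-median probesets only, a variance trend, the mean of all probesets of a gene or the astrocyte score (Slc6a13 each), and with the striatal score (Kctd12). There were 2 on linear intensities (Mkln1, Ubqln1), and 2 at p under 0.03 (Slc6a13, Gabrp). Leaving out single arrays gave 0 to 2. The genes were Slc6a13 without postpartum replicate 3 or virgin replicate 6, Gabrp without postpartum replicate 5, Kctd8 without virgin replicate 2, and Gad2 and Slc32a1 without postpartum replicate 4. The cause was not tested. With the replicate number as a block 2 were called (Slc6a13, Gabrp) and 0 members. Deviations of same-numbered arrays had r from -0.21 to 0.20 over bright probesets, and 2 of 6 postpartum arrays correlated best with their own number.

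Over all probesets 951 were called, 2371 with the 0.03 threshold and 0 with adjustment, while 3685 had an unadjusted p under 0.05. Leaving out single arrays gave 713 (without virgin replicate 5) to 1178 (without postpartum replicate 4). The count was 1262 on linear intensities (797 higher and 465 lower), 652 with the replicate block and 640 with the striatal score. The deposited log2 values split into 511 higher and 440 lower, against 856 higher and 207 lower with arrays centred on their median, which moved the median log2 fold change of all genes to 0.029.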
